A study of Mus musculus with 2 samples.

Results

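The genes described here encode 7 transcription factors and cofactors that bind the enhancers and promoters of olfactory receptor genes in mouse: Lhx2, Emx2, Ebf1, Ebf2, Ebf3, Ebf4 and Ldb1. They were chosen by name for that role, from the 21755 protein-coding genes of GENCODE release M21 on the chromosomes of the boundary list, and all 7 were found there. The rule uses no measured value, but the genes were chosen with earlier results of these data known.

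An olfactory sensory neuron transcribes a single olfactory receptor gene out of a large family spread over most chromosomes. LHX2, a LIM homeodomain protein, and the EBF proteins, helix-loop-helix factors first found in early B cells, bind together at the intergenic enhancers of receptor genes, and LDB1 is the adaptor that LHX2 recruits. In these neurons the enhancers meet between chromosomes in a hub that depends on LHX2 and LDB1, and EMX2, another homeodomain protein, binds receptor promoters. The data analysed here do not show where these proteins bind. They show how the chromosome is divided around the genes that encode them.

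The cells were mature olfactory sensory neurons that express the receptor gene Olfr16, also called MOR23. Fluorescence sorting took them out of olfactory epithelium tissue of MOR23-GFP mice, adults of mixed sex, untreated, whose strain and number the labels used here do not give. In situ Hi-C ligates and sequences pairs of DNA fragments that were neighbours in the fixed nucleus. It was run with DpnII and 1% formaldehyde on 28000 sorted cells in biological replicate 1 and 24400 in replicate 2, and no second cell type or condition is part of the series. No expression values were used here, so the sorted cells could not be checked against marker genes.

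The authors called 7435 boundaries, positions that separate neighbouring stretches of chromosome, on the contact matrix of both replicates combined. Each boundary is 5 kb wide and carries the authors' class, Strong (3854) or Weak (3581), and their strength score, which is at least 0.5 in the Strong class and lower in the Weak class. Neither values of single replicates nor read depths come with the list, so no error can be attached to a single boundary or distance. What follows is a description, with no test, and each count is set beside the same count over protein-coding genes or over the whole list. Distances run from the 5′ end of the gene to the nearest edge of a boundary, and the interval of a gene is the stretch between the boundaries on either side of its start. Positions are 1-based, on GRCm38.

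All 7 genes shared an arrangement of boundaries that was noticed in the data. On the upstream side, the side transcription runs away from, the first boundary was Strong for each of them, and on the downstream side the first boundary was Weak for each. Of 20836 protein-coding starts that lay between boundaries, 25.3% had this order. In the reverse order, Weak upstream and Strong downstream, were 0 of the 7 genes and 23.5% of the starts. Strong boundaries on both sides flanked 0 of the 7 and 37.7% of the starts, and Weak boundaries on both sides 0 and 13.5%. Whatever the side, 7 of the 14 boundaries that flank the genes were Strong, where 3854 of 7435 in the whole list were. The median score was 1.42 for the upstream and 0.322 for the downstream boundaries of the 7 genes, with a median difference of 1.08. Over all starts in intervals the medians were 0.666 upstream and 0.640 downstream, and the median difference was 0.021. Since the classes are divided by score, the direction of the difference for the 7 genes follows from their order and adds nothing to it.

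**Figure D1:**
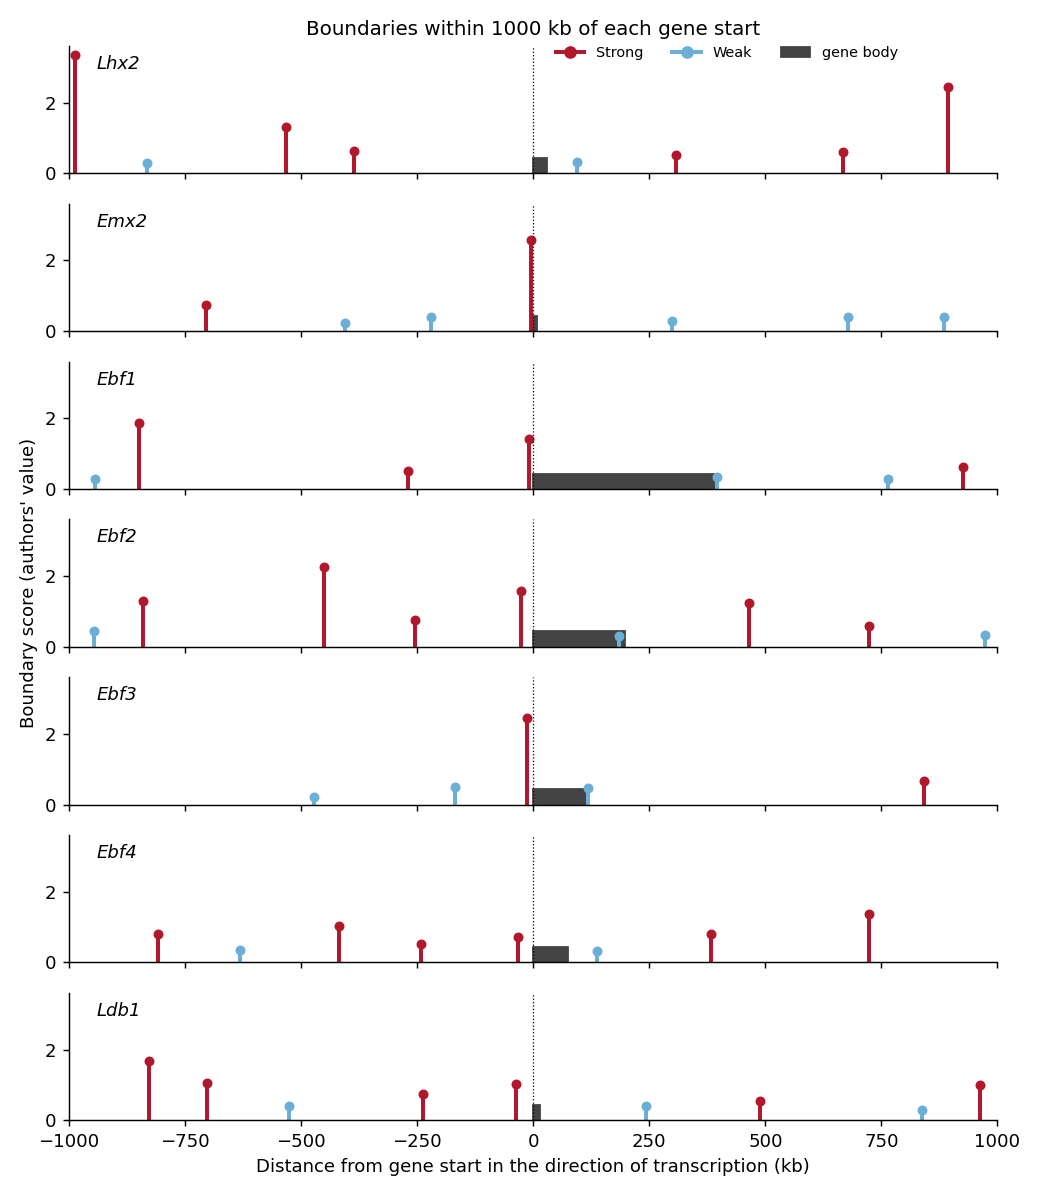
Boundaries within 1000 kb of the start of each gene. The x axis is the distance in kb from the gene start, turned so that transcription runs to the right, the y axis is the authors' score, each stem is a boundary (Strong in red, Weak in blue) and the dark bar is the gene body. The first stem to the left of each start is red and the first to the right is blue.

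Emx2 (ENSMUSG00000043969.4), a homeodomain factor that is also known from forebrain and urogenital development, had the shortest distance to a boundary, by less than the width of one. Its start is at position 59458372 of chromosome 19 on the + strand, and the gene ends at 59465357. The upstream boundary, at 59450001 to 59455000, was 3.37 kb away and scored 2.57, at or above 99.1% of the list. It overlaps no protein-coding gene and lies in Emx2os, the antisense RNA gene that runs from the same locus, named after its value was seen. On the downstream side the first boundary, at 59755001 to 59760000, was 296.6 kb from the start and scored 0.276, at or above 20.2% of the list. Emx2 was the only protein-coding gene that started in this interval of 300.0 kb, of which its own body took up 2.33%.

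Ebf1 (ENSMUSG00000057098.14) is known above all as a factor of B cell commitment and is also strongly expressed in olfactory neurons. The gene runs from 44617317 to 45008091 on the + strand of chromosome 11, a length of 390.8 kb, and its interval followed its outline. The upstream boundary, at 44605001 to 44610000, was 7.32 kb before the start and scored 1.42, and the downstream boundary, at 45010001 to 45015000, was 1.91 kb past the gene's end and scored 0.346. The gene body thus filled 97.7% of an interval of 400.0 kb in which no other protein-coding gene started. Of 18196 protein-coding genes whose whole body lay in 1 interval, 2 filled at least this share of it, Ebf1 itself and Tjp1, the gene of a tight junction scaffold protein, with 98.6% of 235 kb. Tjp1 was named after its value was seen. The 18196 genes were of any length. Among protein-coding genes of between 0.5 and 2 times the length of Ebf1, 58.7% had a boundary in the gene body, and Ebf1 had none.

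Ebf2 and Ebf3, close relatives of Ebf1, each also had an interval with no other protein-coding start. Ebf2, on the + strand of chromosome 14 (ENSMUSG00000022053.13, 67233292 to 67430918), had its upstream boundary at 67205001 to 67210000, 23.3 kb before the start, with a score of 1.56. Its downstream boundary, at 67415001 to 67420000, scored 0.292 and fell in an intron of the gene itself, 10.9 kb from the gene's end. Between them lay 205 kb that held 92.0% of the gene. The body of Ebf2 took up 88.6% of that interval.

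Ebf3, on the − strand of chromosome 7 (ENSMUSG00000010476.14, 137193673 to 137314445), had the second highest of the 7 upstream scores. That boundary, at 137325001 to 137330000, scored 2.45, at or above 98.8% of the list, and lay 10.6 kb before the start in sequence with no annotated gene. The downstream boundary, at 137195001 to 137200000, overlapped exonic sequence of Ebf3, 1.33 kb from the gene's end, and scored 0.483, the highest of the 7 downstream scores. The interval of 125 kb was the shortest around any of the 7 genes, and 5.33% of protein-coding starts lay in intervals as short. Ebf3 filled 91.6% of it. Of all protein-coding starts in intervals, 0.125% belonged to genes that filled as large a share as Ebf1, 0.494% as large a share as Ebf3 and 0.682% as large a share as Ebf2, counting the part of each gene inside its interval. A long gene can fill more of an interval than a short one, and these shares were not matched for gene length. Ebf1, Ebf2 and Ebf3 are 390.8, 197.6 and 120.8 kb long.

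Both boundaries inside gene bodies were Weak and close to the 3′ end, at 92.0% of the length of Ebf2 and 94.8% of that of Ebf3. Among protein-coding genes of like length, 42.3% for Ebf2 and 31.5% for Ebf3 held a boundary. The next boundary past the end of each gene was Strong, 264.1 kb beyond Ebf2 with a score of 1.24 and 718.7 kb beyond Ebf3 with a score of 0.662. Counted from the whole gene and not from its start, therefore, 5 of the 7 genes had a Strong boundary upstream and a Weak one downstream, where 24.8% of protein-coding genes did. The other 5 members, Lhx2, Ldb1, Ebf1, Ebf4 and Emx2, held no boundary. Among genes of like length, 15.4% for Lhx2, 10.5% for Ldb1, 58.7% for Ebf1, 24.4% for Ebf4 and 6.57% for Emx2 held one.

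Ebf4, the fourth gene of the family, sat in another kind of neighbourhood. It lies on the + strand of chromosome 2 (ENSMUSG00000053552.14, 130295169 to 130370481) in an interval of 165 kb with 8 other protein-coding starts, and filled 45.6% of it. The closest of these starts were Idh3b, a subunit of mitochondrial isocitrate dehydrogenase, at 10.6 kb upstream, and the carboxypeptidase-like gene Cpxm1 at 102.4 kb downstream. The upstream boundary (130260001 to 130265000) scored 0.732, was 30.2 kb from Ebf4 and overlapped an exon of Tmc2, which encodes a mechanotransduction channel of inner ear hair cells; the nearest protein-coding start to it was that of Nop56, a core protein of small nucleolar ribonucleoproteins, at 9.43 kb. The downstream boundary (130430001 to 130435000) scored 0.317 and lay in an intron of Vps16, a gene of vacuolar protein sorting. The start of Pced1a was the nearest to it, at 5.30 kb.

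Ldb1 encodes the LIM domain binding adaptor and its product, unlike those of the other genes, does not bind DNA itself. It lies on the − strand of chromosome 19 (ENSMUSG00000025223.15, 46031570 to 46045214) in an interval of 275 kb with 5 other protein-coding starts. Pprc1, which encodes a coactivator related to PGC-1, started 328 bases away on the opposite strand, so the gene records overlap at their 5′ ends. The upstream boundary (46080001 to 46085000) scored 1.04, was 34.8 kb from Ldb1 and lay in exonic sequence of Nolc1, a nucleolar phosphoprotein gene that started 4.14 kb from it. The downstream boundary (45800001 to 45805000) was 240.2 kb away, scored 0.404 and lay in an intron of Kcnip2, a potassium channel subunit gene whose start was 11.1 kb from it.

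Lhx2 (ENSMUSG00000000247.11), a factor needed for the olfactory neuron lineage as well as for eye and forebrain, was the exception in distance. Its start at 38339281 of chromosome 2 (+ strand, gene end 38369733) was 90.7 kb from the nearest boundary, farther than the other 6, and that boundary was the downstream one. At 38430001 to 38435000, it scored 0.322. From the closest transcript start of Lhx2 it was 76.2 kb away. The nearest Strong boundary was 305.7 kb from the start of Lhx2. The upstream boundary, at 37950001 to 37955000, was 384.3 kb away and scored 0.615, the lowest of the 7 upstream scores. It lay in an intron of Dennd1a, a gene of endosomal membrane traffic that was the only other protein-coding gene to start in the interval, 51.9 kb from Lhx2. This interval, 475 kb long, was the longest of the 7, and 80.7% of protein-coding starts lay in intervals of that length or shorter.

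**Figure D2:**
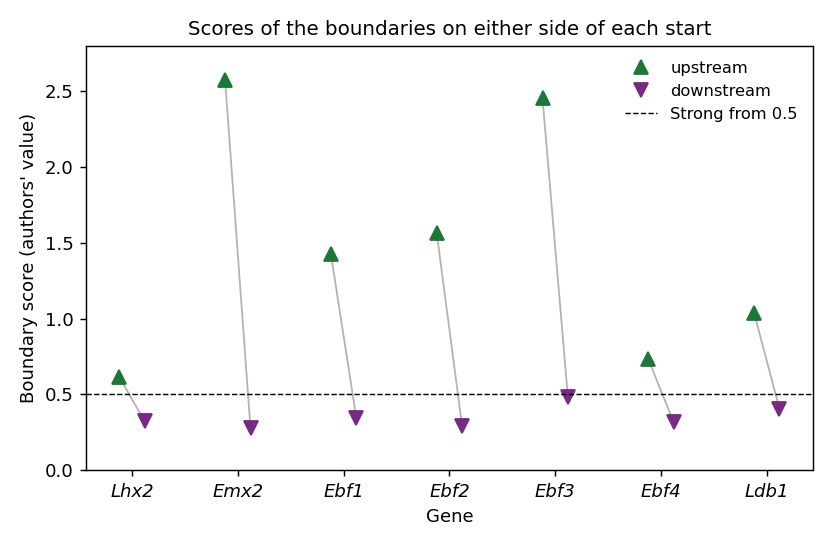
Scores of the boundaries on either side of each gene start. The y axis is the authors' score, upward triangles are the upstream and downward triangles the downstream boundary of each gene on the x axis, and the dashed line is the score of 0.5 from which the class is Strong. All upstream scores lie above the line, between 0.615 and 2.57, and all downstream scores below it, between 0.276 and 0.483.

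In order of distance from the nearest boundary, the genes ran Emx2 (3.37 kb), Ebf1 (7.32 kb), Ebf3 (10.6 kb), Ebf2 (23.3 kb), Ebf4 (30.2 kb), Ldb1 (34.8 kb) and Lhx2 (90.7 kb). Boundaries are placed in steps of 5 kb, so the differences between Emx2 and Ebf1, between Ebf1 and Ebf3 and between Ebf4 and Ldb1 are each less than the width of a boundary, and the order within these pairs is not resolved. Starts within 10 kb of a boundary were those of Emx2 and Ebf1, 2 of 7 or 28.6% (exact 95% interval 3.67 to 71.0%, Clopper-Pearson, counting error only), where 12.5% of 21544 protein-coding starts were as close. The 95% interval treats the genes as independent draws, which genes chosen by name and partly of the same family are not. Ebf3 was just outside the limit of 10 kb. The median distance was 23.3 kb for the 7 genes and 57.8 kb for all starts (quartiles 25.4 and 105.9 kb). The nearest boundary lay upstream for 6 of the 7 genes, all but Lhx2, and for 52.2% of all starts.

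Interval lengths around the 7 genes had the same median as those around all starts, 275 kb in both (quartiles 195 and 415 kb over all starts). The median number of other protein-coding starts in the interval was 0 for the 7 genes and 5 for all. Ebf1, Ebf2, Ebf3 and Emx2 were alone, 4 of 7, where 8.85% of protein-coding starts were. Of these lone genes in general, 28.4% of 1843 had the Strong boundary upstream and the Weak one downstream. Genes that are not protein-coding started in 7 of the 7 intervals, from 1 beside Ebf3 to 8 beside Lhx2, as they did in the intervals of 95.5% of protein-coding starts. With Strong boundaries alone, the intervals ran from 410.0 kb around Ebf4 to 1270.0 kb around Emx2, and Ebf1 (930.0 kb) and Ebf2 (485 kb) still had no other protein-coding start, against 1 for Ebf3 and 4 for Emx2. By that measure 3.31% of all protein-coding starts were alone.

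**Figure D3:**
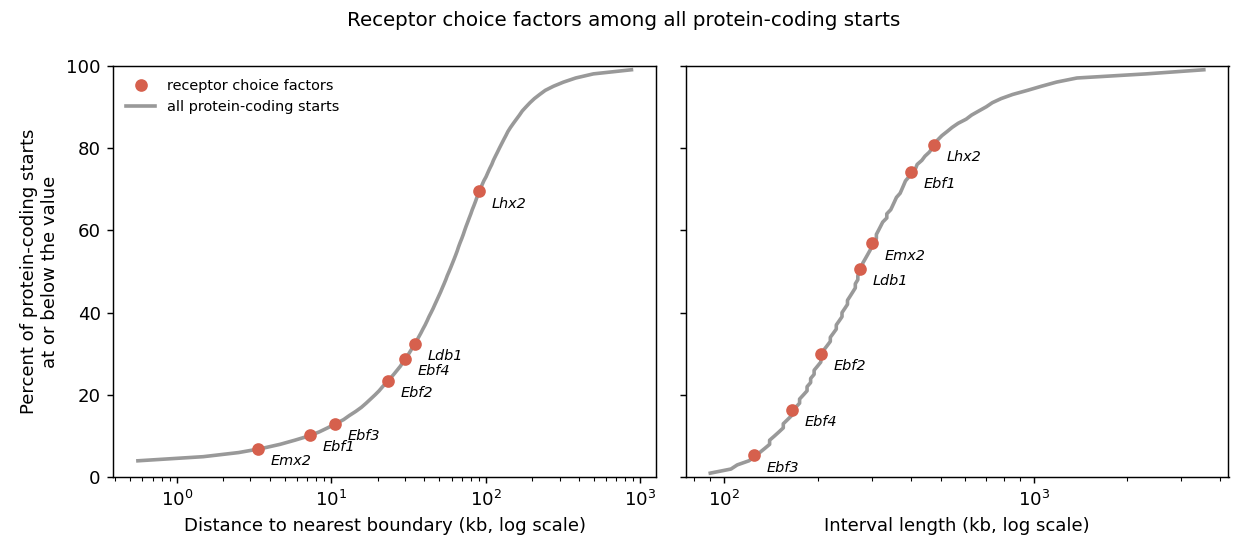
The receptor choice factors among all protein-coding starts. The x axes are the distance to the nearest boundary (left) and the interval length (right), both in kb on a log scale, and the y axis is the percentage of protein-coding starts at or below that value; points are the 7 genes and the grey line all starts. In distance 6 of the 7 points lie at or under 32.4% and Lhx2 at 69.5%, while interval lengths spread from 5.33% (Ebf3) to 80.7% (Lhx2).

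Within 1 Mb of the start there were between 5 boundaries (Ebf3) and 9 (Ebf2 and Ldb1), against a median of 7 for all starts (quartiles 6 and 8). Strong ones among them numbered 2 for Ebf3 and Emx2, 4 for Ebf1 and 6 for each of the others. Strong boundaries within 1 Mb were not counted over all starts, and in the whole list 3854 of 7435 boundaries were Strong. The intervals next in line on the upstream side were 140.0 to 255 kb long and those on the downstream side 210.0 to 720.0 kb, and the downstream one was the longer for 7 of the 7 genes and for 48.6% of 20718 protein-coding starts with an interval on both sides of their own. This count was noticed in the data. GC content of the intervals ran from 42.0% (Lhx2) to 48.1% (Ebf3), where the median of all intervals was 42.5%, and none of the 7 held unknown bases of the assembly.

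Sequence at the boundaries was searched for the consensus of CTCF, the zinc finger protein that stops loop extrusion by cohesin at many boundaries. An exact match lay within 10 kb of 3 of the 14 boundaries that flank the genes (21.4%, exact 95% interval 4.66 to 50.8%, counting error only), and 23.1% of the whole list had one. The 95% interval treats the boundaries as independent draws, though they come in pairs around genes chosen by name. The 3 matches are shown because they mark where such a motif stands near the boundaries that flank these genes. They are printed with 9 bases on each side, read along the motif, which is in capitals.

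Ebf1 downstream boundary, chr11:45008295-45008324, − strand: tggctcatgCCAGCAGAGGGCagcagtacg
Ebf2 upstream boundary, chr14:67211903-67211932, + strand: tggaaatatCCACTAGATGGCaccccagtc
Lhx2 upstream boundary, chr2:37961074-37961103, − strand: acacagtccCCACTAGGTGGCtttttgaag

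The match at Ebf1 lay 1.69 kb from its Weak boundary and 0.213 kb past the end of the gene. Read along the motif it pointed back across the gene, into the interval. At Ebf2 the match was 1.91 kb from the Strong boundary, on the side of the gene and 21.4 kb from its body, and also pointed into the interval. The match at Lhx2, 6.08 kb from its Strong boundary and 378.2 kb from the gene body, pointed the other way, toward the boundary. For the boundaries with the highest scores, those upstream of Emx2 and Ebf3, no exact match was within 10 kb, which says only that these letters were not found in this window.

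Promoter windows from RefSeq (GRCm38.p6), 250 bases before to 50 bases after a start, were at hand for 6 of the 7 genes, all but Ebf2, with 10 windows in all. Their GC content ran from 36.7% in the first window of Ebf1 to 77.0% in Ebf3, where the median of all windows was 52.7%. RefSeq starts are not always the GENCODE starts from which distances were measured. They were 783 and 2911 bases away for Ebf1, 318 for Emx2, 0 for Ebf3 and at most 12027, for a window of Lhx2. The 2 windows of Ebf1, with 36.7% and 53.0%, were at or above 5.78% and 51.4% of all windows, and the window of Ebf3 at or above 97.8%. The Ebf3 window is shown up to its start, as the promoter of the gene that lies 10.6 kb from the second highest of the upstream scores.

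Ebf3 promoter, chr7:137314446-137314695, − strand: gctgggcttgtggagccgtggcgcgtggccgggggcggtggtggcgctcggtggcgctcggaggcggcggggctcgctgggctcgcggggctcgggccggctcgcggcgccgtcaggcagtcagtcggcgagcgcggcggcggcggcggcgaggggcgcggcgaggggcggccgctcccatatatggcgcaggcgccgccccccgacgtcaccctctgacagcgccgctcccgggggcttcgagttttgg

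Since the EBF, LHX2 and EMX2 proteins bind DNA, the windows were searched for the EBF consensus palindrome and for the homeodomain core TAATTA. Both read the same on either strand, and neither overlaps the other. The EBF site was in 0 of the 10 windows and in 0.904% of 32851 windows of the table. The homeodomain core was in 1 of the 10, that of Emx2, and in 5.29% of all windows. It began 36 bases after the RefSeq start, which is 318 bases downstream of the GENCODE start. The core is shown in capitals within 30 bases of sequence.

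Emx2, chr19:59458710-59458739, + strand: tatgtgatccccgcacTAATTAggctcatg

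Related genes placed these values in context. Of 14 transcription factors that act earlier in the olfactory lineage, 1 start lay within 10 kb of a boundary, that of the homeobox gene Dlx3 at 0.119 kb, and Trp63, the factor of the horizontal basal stem cells, was farthest at 281.2 kb. Their median distance was 37.2 kb, 7 of 14 had the Strong boundary upstream and the Weak one downstream, and 5 were alone. A list of 15 genes of olfactory signal transduction also held Omp, Rtp1 and Rtp2. Among these 15, 1 start was within 10 kb, that of the G protein subunit gene Gng13, which lay inside a boundary. The farthest was Ric8b, an exchange factor for the olfactory G protein, at 107.4 kb. The median distance was 46.9 kb, and of the 14 that did not start inside a boundary 6 had the Strong then Weak order and 2 were alone.

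Relatives of Lhx2, Ldb1 and Emx2 were described by the same measures. Among 11 LIM homeobox relatives of Lhx2, the nearest to a boundary was Lhx1 at 9.47 kb, the farthest Lhx8 at 244.3 kb, and the median 48.3 kb. Of these, 2 had the Strong boundary upstream and the Weak one downstream, and 5 were alone in their intervals. Lhx9 was counted both here and among the lineage factors. For 8 partners and relatives of Ldb1, distances ran from 4.72 kb for Ssbp2, a gene of the LDB1-binding SSBP proteins, to 387.0 kb for the LIM-only gene Lmo3. Their median was 73.6 kb, above the 57.8 kb of all starts, with 2 of 8 in the Strong then Weak order and 4 alone. Emx1, the paralogue of Emx2, lay 42.4 kb from a boundary scored 1.89, was flanked by Strong boundaries on both sides and shared its interval with 4 other protein-coding starts. The differences between these lists were not tested.

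**Figure D4:**
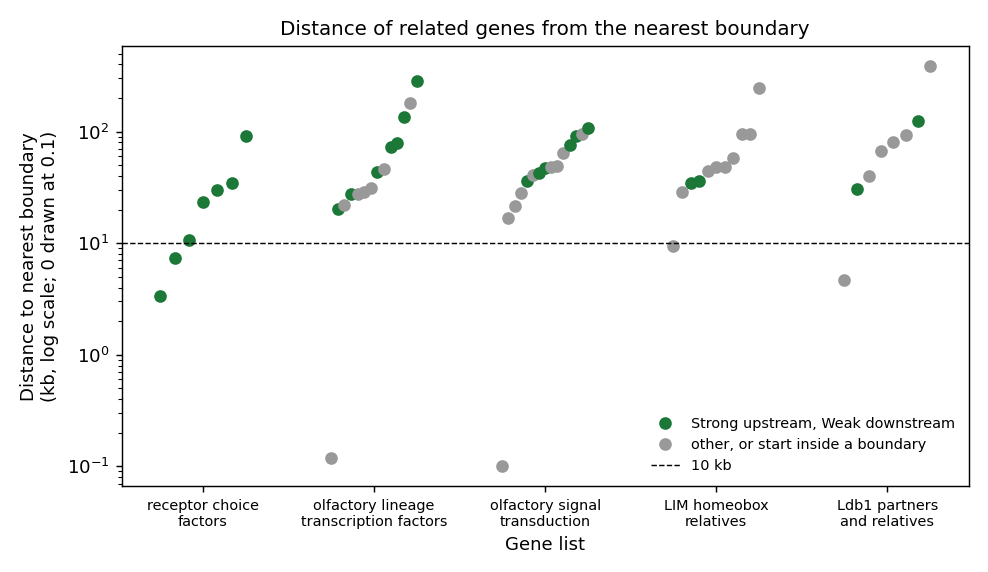
Distance of related genes from the nearest boundary. Each point is a gene, the y axis is the distance in kb on a log scale with 0 drawn at 0.1, green points have a Strong boundary upstream and a Weak one downstream, and the dashed line is at 10 kb. All 7 receptor choice factors are green, against 7 of 14 lineage factors, 6 of 14 signalling genes in intervals, 2 of 11 LIM homeobox genes and 2 of 8 partners of Ldb1.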

How the data were processed

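The measurements are from in situ Hi-C on 2 biological replicates of sorted Olfr16 neurons, which form 1 group. Boundaries were called by the authors on the matrix of both replicates combined, per the file descriptions in the series design, and the build is GRCm38, per the submitters' processing notes. The strength score was deposited by the authors; its formula, the caller and its window were not given in the sources used here. It therefore served only to describe and rank boundaries within the list. Depth is unknown.

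Starts were the 5′ ends of GENCODE M21 gene records, and 211 protein-coding starts beyond the first or last boundary were left out. A further 708 started inside a boundary and have no interval. Near meant within 10 kb. The CTCF consensus (12 bases) was searched on both strands of the RefSeq copy of GRCm38. Scripts (Python 3.11.15, NumPy 2.4.6, SciPy 1.17.1) were tested on made-up positions and planted motifs. The 7 genes and the related lists were chosen with earlier results of these data known. The order of Strong and Weak boundaries and the lone genes were noticed in the data, so nothing supports them but the counts.

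Named genes were the 7, the protein-coding genes that share an interval (the closest on each side and those nearest the flanks where there were over 4), the nearest protein-coding start within 50 kb of each flank, any coding gene a flank overlaps, and the ends of each related list. Identity between the Ebf proteins, planned, was not computed, since protein sequences were not used here.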

Additional observations from a re-analysis of the deposited data

How the results depend on the processing

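With limits of 25 and 50 kb, 4 and 6 of the 7 starts were near a boundary, where 24.8% and 44.3% of all protein-coding starts were, and 0 lay inside one. Measured to midpoints, the median distance was 25.8 kb the median interval 280.0 kb and the distance of Emx2 5.87 kb; intervals were 690.0 kb with Strong boundaries only and 400.0 kb with scores of at least 0.3. No Strong boundary lay in a gene body (0), and the share of all protein-coding genes with one was not counted. The median number of other starts was 5 with every biotype counted and 3 with Strong boundaries only. The same medians over all starts were not computed. With every biotype counted 0 of the genes were alone, where 95.5% of protein-coding starts had a non-coding start in the interval. With Strong boundaries only 2 were alone, against 3.31% of all starts. A CTCF match was inside 0 of the 14 flanking boundaries (6.29% of the list), within 25 kb of 6 (38.1% of the list) and, with up to 1 mismatch, within 10 kb of 14 (87.9%).

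The alternatives for the Strong then Weak order were chosen after seeing the data. With a split at 0.4 the order held for 5 of 7 genes (20.7% of all starts). That split puts the downstream boundaries of Ldb1 and Ebf3 in the upper class. With a split at 0.6 it held for 7 (27.3%). From every transcript start it also held for 7, a count that was not made over all genes. The upstream score was the higher for 7 (51.5%), but this follows from the class order, since the classes are divided by score, and is no separate check. The other counts changed by no more than 1.5 times. Without values per replicate, no replicate could be left out, and the spread of each boundary between animals is unknown.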

Other observations

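Olfactory receptor genes are spread over most chromosomes, and those of all 7 genes carry some. The share of all protein-coding genes on such chromosomes was not counted, so this does not set the 7 apart. Of the 7, Lhx2 was the closest to a receptor gene, 1.01 Mb from Olfr368, the nearest on chromosome 2. Between them lay 4 boundaries, 3 of them Strong, and the highest scored 3.33 (37350001 to 37355000). Ebf3 was 2.85 Mb from Olfr522 on chromosome 7, with 12 boundaries between them, 6 of them Strong, and Ebf1 was 4.36 Mb from Olfr56 on chromosome 11, also with 12, 5 of them Strong. In the whole list 3854 of 7435 boundaries were Strong, and boundaries over stretches of like length elsewhere were not counted. For the other 4 genes the nearest receptor gene of the chromosome was 12.9 to 45.5 Mb away. These receptor genes were named after their values were seen.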
